A study of Oryza sativa with 6 samples.

Results

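The heat shock transcription factors and heat shock proteins of rice were followed in panicles of wild-type plants and of plants that overexpress OsEXPA7. The set held 43 of the 42189 loci in the expression table and was defined by a list of locus identifiers, drawn up with earlier results of these data known. It comprised 25 heat shock factors (HSFs), 10 small heat shock proteins (small HSPs), the HSP100-type chaperone HSP101, 2 HSP90 loci and 5 HSP70 loci. These classes came with the list of identifiers, and 0 of the 43 identifiers were found in the RefSeq gene table for assembly ASM3414082v1, so single gene names and subclasses are not used. The same table names 23 HSF genes, and its number per chromosome equalled the number of HSF loci in the set on 10 of the 12 chromosomes, counting 2 with none in either.

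HSFs are transcription factors that bind heat shock elements in promoters, and some of them switch on chaperone genes when proteins unfold. HSP70 and HSP90 are ATP-driven chaperones that fold and mature client proteins also without stress, HSP101 pulls apart protein aggregates, and small HSPs hold unfolding proteins until other chaperones can refold them. In plants many of these genes are induced by heat, and a number of them are also expressed during the normal development of flowers, pollen and seeds.

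All plants were of the cultivar Nipponbare and all libraries came from panicles under a treatment called natural. The wild type had 3 libraries, for which the genotype field reads EXPA7, and the overexpression group had 3 libraries, for which it reads EXPA7_OE; OsEXPA7 is an alpha-expansin, a protein that loosens plant cell walls. The promoter of the transgene, the number of transgenic lines, the stage of the panicles and the date of harvest are unstated in the labels, so a difference in any of them cannot be told apart from the genotype. Libraries are called biological replicates, but nothing says that they came from separate plants. A p-value here weighs a difference against the spread among libraries within each genotype, moderated over all tested loci. That spread may be technical.

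Values are TPM, a relative transcript abundance scaled for transcript length and to one total in every library, so levels of different loci can be compared; the read depth is unknown. Correlations of log2(TPM + 1) across loci were 0.991 to 0.993 within a genotype and 0.948 to 0.953 between them. LOC_Os03g60720, paired with OsEXPA7 from general knowledge and not by the table, ranged from 882 to 964 TPM in the wild-type libraries and from 4323 to 5077 TPM in the overexpression libraries. As a check of the tissue, 7 floral organ MADS-box and YABBY loci, likewise paired from general knowledge, lay between 33.4 and 291 TPM in every library. Of these 7 loci 3 were higher with overexpression and 1 was lower past the threshold given below; LOC_Os06g49840 moved most, from 76.0 ± 2.84 to 145 ± 4.88 TPM (SD, n = 3), and the part of such shifts in the results below was not tested. Changes below are log2 changes on the log2(TPM + 1) scale, overexpression minus wild type, with the standard error (SE) of limma's moderated fit and Benjamini-Hochberg adjusted p-values over the 23395 tested loci, those reaching 1 TPM in 3 or more libraries; the threshold is an adjusted p of 0.05. In whole panicles, fewer cells of a type and less RNA per cell cannot be told apart.

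The HSF class as a whole stood at a higher level in the overexpression panicles. Summed over the 25 loci, HSF transcripts measured 211, 207 and 206 TPM in the wild-type libraries and 303, 311 and 305 TPM in the overexpression libraries. The groups did not overlap, and the mean was 1.47-fold higher, at 306 ± 4.22 against 208 ± 2.75 TPM (SD, n = 3). Of the 22 HSF loci that passed the filter on low values, 13 rose and 2 fell, while the other 7 stayed short of the threshold. Leaving aside LOC_Os02g13800, which reached 1 TPM only with overexpression, 12 of 21 rose and 15 of 21 had overexpression above wild type in every library. Among all tested loci 42.8% passed, 25.3% higher and 17.5% lower, so calls were common throughout the transcriptome. The median log2 change of the 22 was 0.41, beside 0.06 for all tested loci. The groups did not overlap at 18 of the 22, 16 with overexpression above wild type, where 53.7% of all tested loci did not overlap. Past the threshold and at least 2-fold higher on the log2(TPM + 1) scale were 5 HSF loci, where the share among all tested loci was 3.25%.

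**Figure D1:**
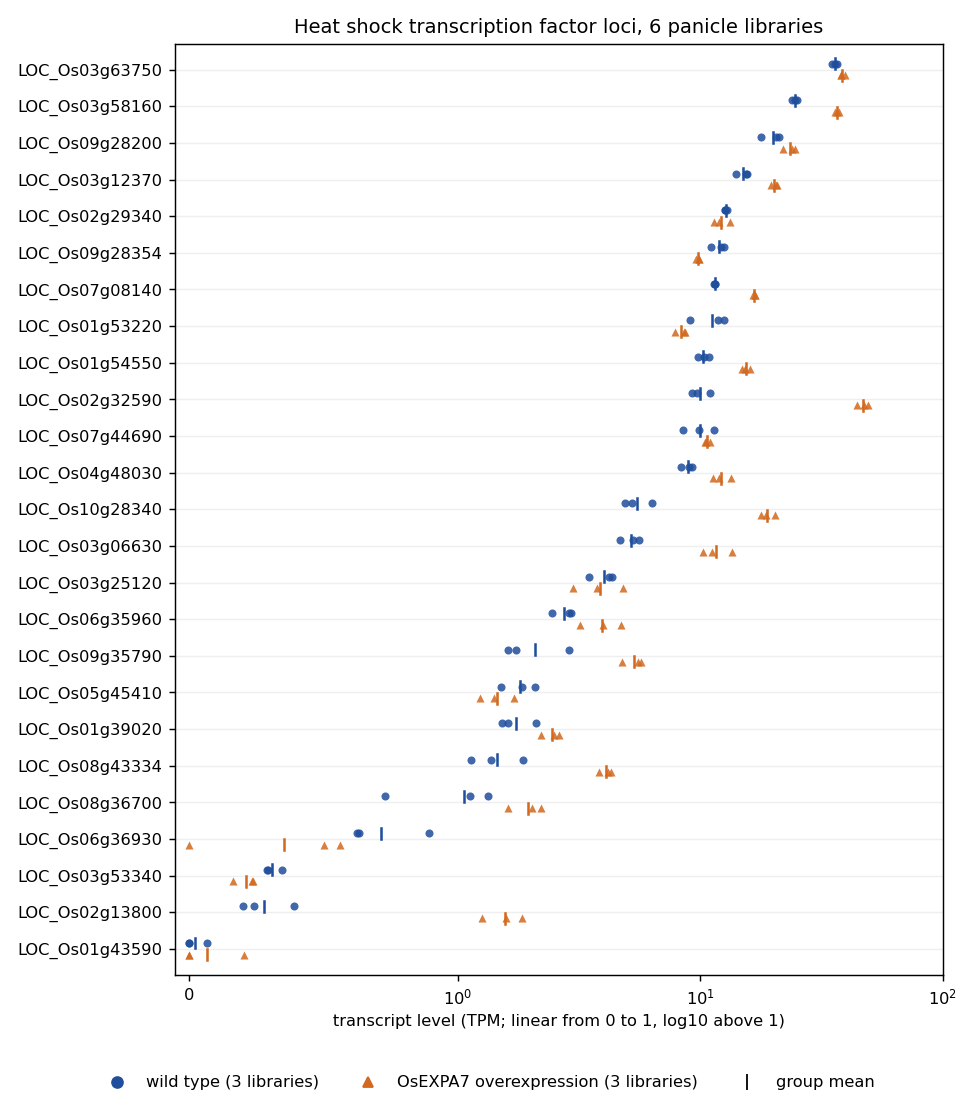
TPM of the 25 HSF loci in each of the 6 libraries (points) with group means (vertical bars), ordered by wild-type mean; the axis is linear from 0 to 1 TPM and logarithmic above. LOC_Os02g32590 moves from the middle of the wild-type order, at 9.22 to 11.0 TPM, to the highest overexpression values, at 44.2 to 49.2 TPM.

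LOC_Os02g32590 on chromosome 2 had the largest log2 change in the class. It measured 11.0, 9.22 and 9.64 TPM in wild type and 49.2, 44.2 and 47.4 TPM with overexpression. The groups lay far apart and the mean was 4.72-fold higher, a log2 change of 2.13 ± 0.08 (SE) with a limma adjusted p of 1.32e-07. By level this locus ranked between 9 and 11 among the 25 HSFs in the wild-type libraries and ranked 1 in every overexpression library. Its share of the summed TPM of the 25 HSF loci went from 4.77% ± 0.383 to 15.3% ± 1.03 (SD, n = 3).

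LOC_Os10g28340, the single HSF locus of the set on chromosome 10, measured 6.31, 5.22 and 4.87 TPM in wild type and 18.7, 20.3 and 17.7 TPM with overexpression. Every overexpression library was above every wild-type library, and the mean was 3.46-fold higher, a log2 change of 1.63 ± 0.10 (SE) with a limma adjusted p of 3.95e-06. LOC_Os03g06630 on chromosome 3 measured 5.56, 4.65 and 5.26 TPM in wild type and 11.1, 13.5 and 10.2 TPM with overexpression. Its groups were also apart, with a 2.25-fold higher mean and a log2 change of 1.03 ± 0.12 (SE).

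A further 2 HSF loci rose at least 2-fold from low levels. LOC_Os08g43334 measured 1.36, 1.85 and 1.13 TPM in wild type and 4.28, 3.82 and 4.17 TPM with overexpression, a 2.83-fold higher mean. LOC_Os09g35790 measured 2.87, 1.61 and 1.73 TPM in wild type and 4.76, 5.54 and 5.71 TPM with overexpression, a 2.58-fold higher mean, and its first wild-type library stood above the other two. The groups were separate at both loci, whose log2 changes were each 1.07, with limma adjusted p of 0.000248 and 0.000779. LOC_Os02g13800 came just under 2-fold on the log2(TPM + 1) scale, with a log2 change of 0.998 ± 0.14 (SE), although its mean of 1.56 TPM was 5.60-fold above the wild-type mean of 0.278 TPM. It was the 1 tested locus of the set that reached 1 TPM in a single genotype only, so it passed the filter through the group in which it is high and had to differ.

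Of the 2 most abundant HSF loci in wild type, 1 rose and the other stayed short of the threshold. LOC_Os03g63750, the highest in wild type, measured 34.9, 36.0 and 36.6 TPM there and 37.9, 39.6 and 38.0 TPM with overexpression. Although the groups did not overlap, its log2 change of 0.10 ± 0.06 (SE) did not pass the threshold (limma adjusted p = 0.186), with a 95% confidence interval of -0.03 to 0.23, and it turned to -0.0088 after quantile normalization. LOC_Os03g58160 measured 23.9, 24.6 and 24.9 TPM in wild type and 35.9, 37.2 and 36.5 TPM with overexpression. That locus rose 1.49-fold, a log2 change of 0.56 ± 0.06 (SE) with a limma adjusted p of 8.63e-05. Its share of the summed TPM of the 25 HSF loci was 11.8% in wild type and 11.9% with overexpression.

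**Figure D2:**
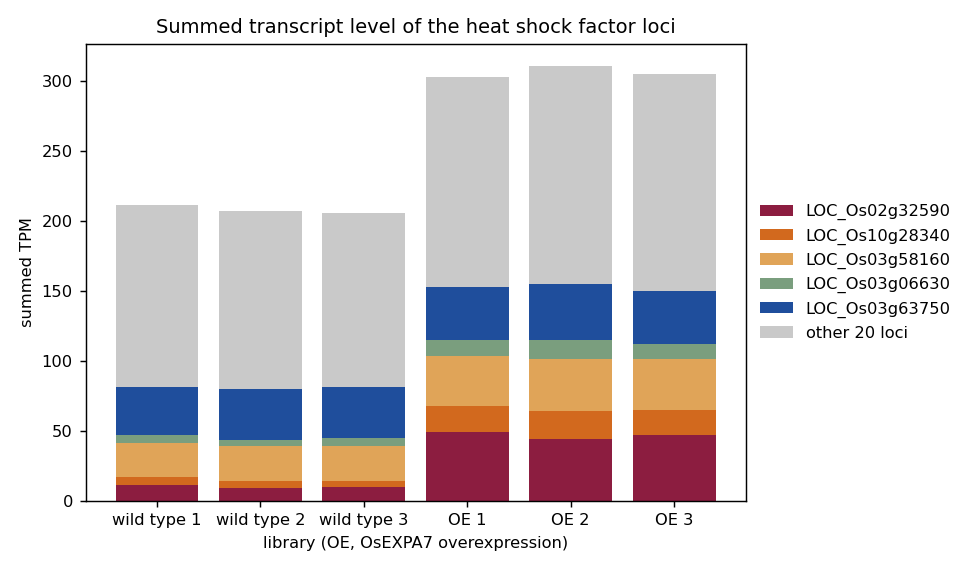
Summed TPM of the 25 HSF loci in each library (bars from 0), split into the 4 loci with the largest gain in mean TPM, the most abundant wild-type locus LOC_Os03g63750, and the other 20. The bars stand at 206 to 211 TPM for wild type and 303 to 311 TPM for overexpression (OE), and the segment of LOC_Os02g32590 grows most.

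The gain of the class was spread unevenly over its loci. Summed HSF transcripts gained 98.2 TPM between the group means, of which LOC_Os02g32590 made up 37.7%, LOC_Os10g28340 13.7% and LOC_Os03g58160 12.3%. Without LOC_Os02g32590 the sum still lay at 196 to 200 TPM in the wild-type libraries and 254 to 267 TPM in the overexpression libraries, 1.31-fold higher. LOC_Os03g63750, the most abundant HSF in wild type, contributed 2.69% of the gain.

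The other 6 HSF loci that rose had log2 changes from 0.39 to 0.54. LOC_Os07g08140, LOC_Os01g54550, LOC_Os03g12370 and LOC_Os04g48030 had wild-type means of 8.87 to 15.0 TPM and overexpression means of 12.2 to 20.2 TPM. LOC_Os08g36700 and LOC_Os06g35960 were low, at 1.06 and 2.73 TPM in wild type and 1.94 and 3.94 TPM with overexpression. Both calls were close to the threshold and were lost in several fits that left out a library. LOC_Os08g36700 had a limma adjusted p of 0.0217. It became 0.0755 without wild-type replicate 2, 0.0525 without overexpression replicate 1 and 0.0678 without overexpression replicate 2. For LOC_Os06g35960 it was 0.0419, and 0.0695, 0.0751 and 0.114 without wild-type replicates 1, 2 and 3 and 0.0914 and 0.149 without overexpression replicates 2 and 3; the call was also lost with median-of-ratios scaling (0.0649) and quantile normalization (0.0581).

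Both HSF loci that fell did so by little. LOC_Os09g28354 had a mean of 11.9 ± 0.731 TPM in wild type and 9.73 ± 0.151 TPM with overexpression (SD, n = 3), and its log2 change was -0.27 ± 0.08 (SE; limma adjusted p = 0.0263). LOC_Os01g53220 had a mean of 11.1 ± 1.82 TPM in wild type and 8.33 ± 0.417 TPM with overexpression (SD, n = 3), and its log2 change was -0.37 ± 0.12 (SE; limma adjusted p = 0.0325). Neither call held throughout. The adjusted p of LOC_Os09g28354 was 0.098 and 0.0832 without wild-type replicates 1 and 2, and 0.0602 and 0.0691 without overexpression replicates 2 and 3. That of LOC_Os01g53220 was 0.116 and 0.101 without wild-type replicates 1 and 2, and 0.0515, 0.0902 and 0.0685 without overexpression replicates 1, 2 and 3.

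Besides LOC_Os03g63750, 6 tested HSF loci did not pass the threshold. LOC_Os09g28200, with 19.9 ± 1.76 TPM in wild type and 23.4 ± 1.37 TPM with overexpression (SD, n = 3), and LOC_Os01g39020, with 1.74 ± 0.308 and 2.43 ± 0.215 TPM, had groups that did not overlap and limma adjusted p of 0.0537 and 0.0623. LOC_Os09g28200 passed without overexpression replicate 1 (0.0449) and LOC_Os01g39020 without wild-type replicate 1 (0.0445). The groups overlapped at LOC_Os07g44690, LOC_Os02g29340, LOC_Os03g25120 and LOC_Os05g45410, with log2 changes between -0.20 and 0.10. The 3 HSF loci that were not tested stayed under 1 TPM in every library: LOC_Os03g53340 at 0.162 to 0.347 TPM, LOC_Os06g36930 at up to 0.890 TPM and listed at 0 in overexpression replicate 1, and LOC_Os01g43590 listed at 0 in 4 libraries and at no more than 0.203 TPM in the others.

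The small HSP loci moved in both directions: of 10 loci, all tested, 2 rose, 4 fell and the other 4 stayed short of the threshold, beside the background of 25.3% higher and 17.5% lower. Their summed level was 340, 331 and 325 TPM in wild type and 323, 296 and 323 TPM with overexpression, a ratio of means of 0.946. Every overexpression library was below every wild-type library in this sum, by little, and the sum without its most abundant locus overlapped between the groups with a ratio of 1.03. The median log2 change was -0.21, beside 0.06 for all tested loci. The falls and rises lay on different chromosomes: 3 of the 4 loci that fell are neighbours on chromosome 1, and both loci that rose are neighbours on chromosome 3.

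**Figure D3:**
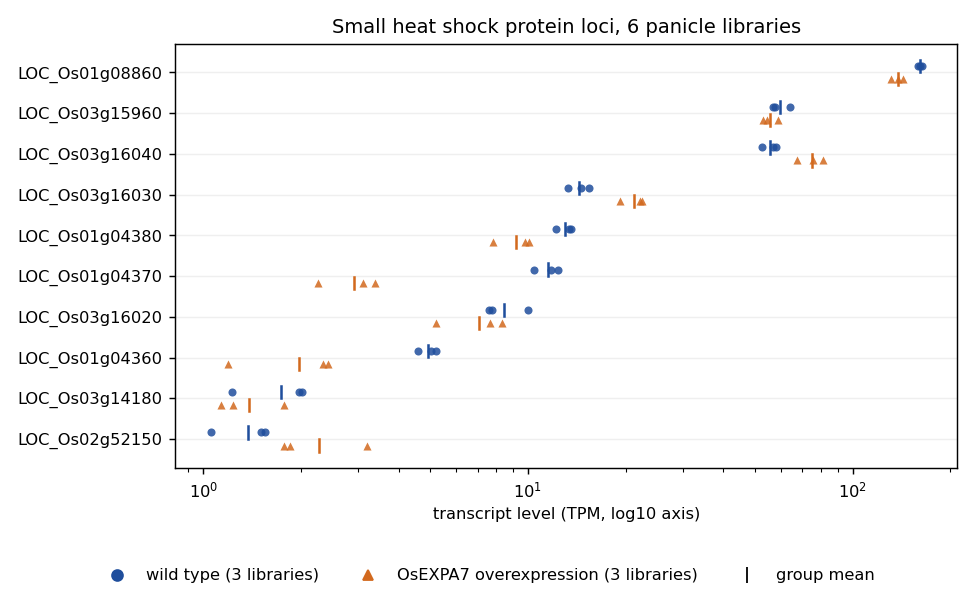
TPM of the 10 small HSP loci in each library (points) with group means (vertical bars) on a log10 axis, ordered by wild-type mean. LOC_Os01g04370 drops from 10.4 to 12.3 TPM in the wild-type libraries to 2.26 to 3.38 TPM with overexpression, while LOC_Os03g16030 and LOC_Os03g16040 lie higher with overexpression.

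On chromosome 1 the identifiers LOC_Os01g04360, LOC_Os01g04370 and LOC_Os01g04380 follow each other, and all of them fell. LOC_Os01g04370 measured 12.3, 11.8 and 10.4 TPM in wild type and 3.11, 3.38 and 2.26 TPM with overexpression. The groups were far apart, with a 3.95-fold lower mean and a log2 change of -1.68 ± 0.13 (SE; limma adjusted p = 1.24e-05), and by size of fall it ranked 57 among all 23395 tested loci. LOC_Os01g04360 measured 5.20, 4.58 and 5.01 TPM in wild type and 1.19, 2.33 and 2.41 TPM with overexpression. Its groups were separate as well, its first overexpression library was the lowest, and its log2 change was -1.02 ± 0.17 (SE; limma adjusted p = 0.00148). These 2 loci were at least 2-fold lower, where 1.57% of all tested loci were.

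The third of these neighbours, LOC_Os01g04380, had the smaller fall, from a mean of 13.1 ± 0.756 to 9.21 ± 1.25 TPM (SD, n = 3), and its log2 change was -0.47 ± 0.11 (SE). The ratio of LOC_Os01g04370 to LOC_Os01g04380 was 0.855 to 0.921 in the wild-type libraries and 0.230 to 0.434 in the overexpression libraries, without overlap. All 3 chromosome 1 neighbours, LOC_Os01g04360 included, summed to 27.6 to 30.9 TPM across the wild-type libraries and 13.5 to 14.5 TPM with overexpression, a 2.09-fold lower mean. Small HSP neighbours are often close copies of each other, and the labels do not say how reads that match several copies were assigned, so the split between these loci is uncertain.

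On chromosome 3 the loci LOC_Os03g15960, LOC_Os03g16020, LOC_Os03g16030 and LOC_Os03g16040 did not all pass the threshold: 2 of the 4 rose and the others stayed short of it. LOC_Os03g16040 measured 58.1, 56.7 and 52.6 TPM in wild type and 81.3, 67.3 and 75.6 TPM with overexpression. All overexpression libraries were higher, with a 1.34-fold higher mean and a log2 change of 0.41 ± 0.08 (SE; limma adjusted p = 0.00251). LOC_Os03g16030 rose in a similar measure, from 14.4 ± 1.09 to 21.3 ± 1.78 TPM (SD, n = 3), and its log2 change was 0.53 ± 0.09 (SE; limma adjusted p = 0.00137).

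The groups overlapped at the remaining neighbours on chromosome 3, LOC_Os03g15960 and LOC_Os03g16020, which did not pass the threshold (limma adjusted p of 0.274 and 0.259). LOC_Os03g15960 measured 59.6 ± 3.97 TPM in wild type and 55.6 ± 3.01 TPM with overexpression (SD, n = 3), with a 95% confidence interval of its log2 change from -0.25 to 0.06. It was the second most abundant small HSP in every wild-type library and the third in every overexpression library, where LOC_Os03g16040 stood above it. The ratio of LOC_Os03g16040 to LOC_Os03g15960 was 0.906 to 0.982 in wild type and 1.27 to 1.38 with overexpression. As on chromosome 1, the assignment of reads that match several copies is unknown, so the split between these neighbours is uncertain. Summed, all 4 chromosome 3 loci reached 133 to 143 TPM across the wild-type libraries and 148 to 167 TPM with overexpression.

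The most abundant small HSP, LOC_Os01g08860, lies elsewhere on chromosome 1 and also fell. It measured 163, 159 and 161 TPM in wild type and 138, 132 and 143 TPM with overexpression. The groups were separate, but the difference was small, a 1.17-fold lower mean and a log2 change of -0.23 ± 0.05 (SE) with a limma adjusted p of 0.00507. It made up 48.5% ± 0.935 of the TPM of the 10 small HSP loci in wild type and 43.8% ± 0.950 with overexpression (SD, n = 3).

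The least abundant small HSPs in wild type were LOC_Os03g14180 and LOC_Os02g52150, with means between 1.37 and 2.28 TPM in the 2 genotypes. Neither passed the threshold (limma adjusted p of 0.361 and 0.0756). The groups did not overlap at LOC_Os02g52150, where overexpression replicate 3 stood at 3.20 TPM and the other two at 1.77 and 1.86 TPM.

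HSP101, represented by LOC_Os05g44340 on chromosome 5, rose by a moderate amount. It measured 12.4, 10.8 and 11.4 TPM in wild type and 16.2, 15.7 and 18.3 TPM with overexpression. The groups did not overlap, the mean was 1.45-fold higher, and the log2 change was 0.50 ± 0.09 (SE) with a limma adjusted p of 0.00195.

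The HSP90 loci differed both in level and in direction. LOC_Os09g30412 on chromosome 9 measured 197, 205 and 205 TPM in wild type and 363, 378 and 357 TPM with overexpression. The libraries of one genotype were close together and the genotypes far apart, with a 1.81-fold higher mean, a log2 change of 0.85 ± 0.04 (SE) and a limma adjusted p of 8.26e-07. In TPM, its gain from 202 ± 4.44 to 366 ± 10.7 (SD, n = 3) exceeded the gain of all 25 HSF loci together.

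LOC_Os04g01740 on chromosome 4 held little of the summed TPM of the 2 HSP90 loci, 1.45% in wild type and 0.522% with overexpression. It measured 3.17, 2.91 and 2.84 TPM in wild type and 1.59, 2.20 and 1.97 TPM with overexpression. The groups did not overlap and the locus fell, with a log2 change of -0.45 ± 0.12 (SE; limma adjusted p = 0.0157), a call that was lost without wild-type replicate 1 (limma adjusted p = 0.0586).

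**Figure D4:**
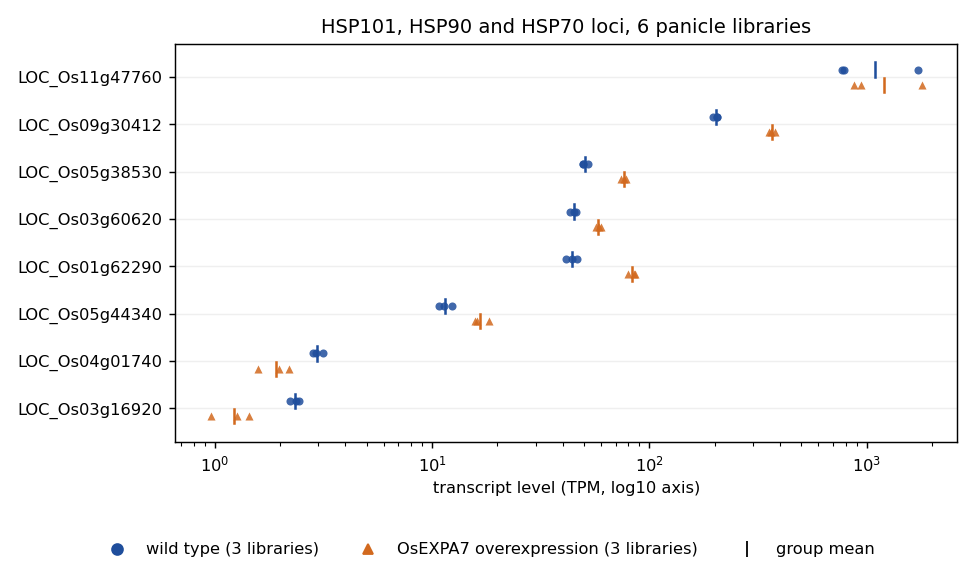
TPM of HSP101 (LOC_Os05g44340), the HSP90 loci (LOC_Os09g30412, LOC_Os04g01740) and the 5 HSP70 loci in each library (points) with group means (vertical bars) on a log10 axis. One library of each genotype stands apart at LOC_Os11g47760, at 1724 and 1796 TPM. The genotypes do not overlap at the other 7 loci, where 53.7% of all tested loci did not overlap.

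Among the 5 HSP70 loci, 3 rose, 1 fell and the other stayed short of the threshold, beside 25.3% higher and 17.5% lower among all tested loci. LOC_Os01g62290 measured 46.4, 44.1 and 41.4 TPM in wild type and 85.7, 79.9 and 84.8 TPM with overexpression. The groups were far apart, with a 1.90-fold higher mean and a log2 change of 0.91 ± 0.06 (SE; limma adjusted p = 5.24e-06). LOC_Os05g38530 rose from 50.3 ± 1.47 to 76.3 ± 2.02 TPM, and LOC_Os03g60620 from 44.9 ± 1.42 to 58.4 ± 1.57 TPM (SD, n = 3), with log2 changes of 0.59 and 0.37 and limma adjusted p of 3.22e-05 and 0.000684. These 3 loci had similar levels in wild type and were ordered differently with overexpression: LOC_Os01g62290 was above LOC_Os05g38530 in every overexpression library and below it in every wild-type library.

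LOC_Os03g16920, the lowest HSP70 locus, fell from 2.34 ± 0.111 to 1.22 ± 0.243 TPM (SD, n = 3). Its log2 change was -0.59 ± 0.13 (SE), with a limma adjusted p of 0.00497. The low HSP90 locus and the low HSP70 locus thus both fell while the more abundant loci that passed the threshold in their classes rose.

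LOC_Os11g47760 on chromosome 11 was the most abundant locus of the whole set and its level varied most within a genotype. It measured 1724, 788 and 771 TPM in wild type and 875, 943 and 1796 TPM with overexpression. Wild-type replicate 1 and overexpression replicate 3 stood above the 4 other libraries, so the groups overlapped. The log2 change of 0.17 ± 0.34 (SE) did not pass the threshold (limma adjusted p = 0.72), its 95% confidence interval ran from -0.60 to 0.94, and it turned to -0.016 and -0.032 without wild-type replicates 2 and 3 and to -0.16 without overexpression replicate 3.

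That locus held 87.2% of the summed TPM of the 5 HSP70 loci in wild type and 83.4% with overexpression, so this sum followed it. With it, the sum was 909 to 1866 TPM across the wild-type libraries and 1097 to 2017 TPM with overexpression, and the ratio of means was 1.15, or 1.55 without wild-type replicate 1 and 0.912 without overexpression replicate 3. Without it, the other 4 loci measured 142, 144 and 138 TPM in wild type and 222, 215 and 221 TPM with overexpression. The groups of this reduced sum did not overlap, and its mean was 1.55-fold higher.

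**Figure D5:**
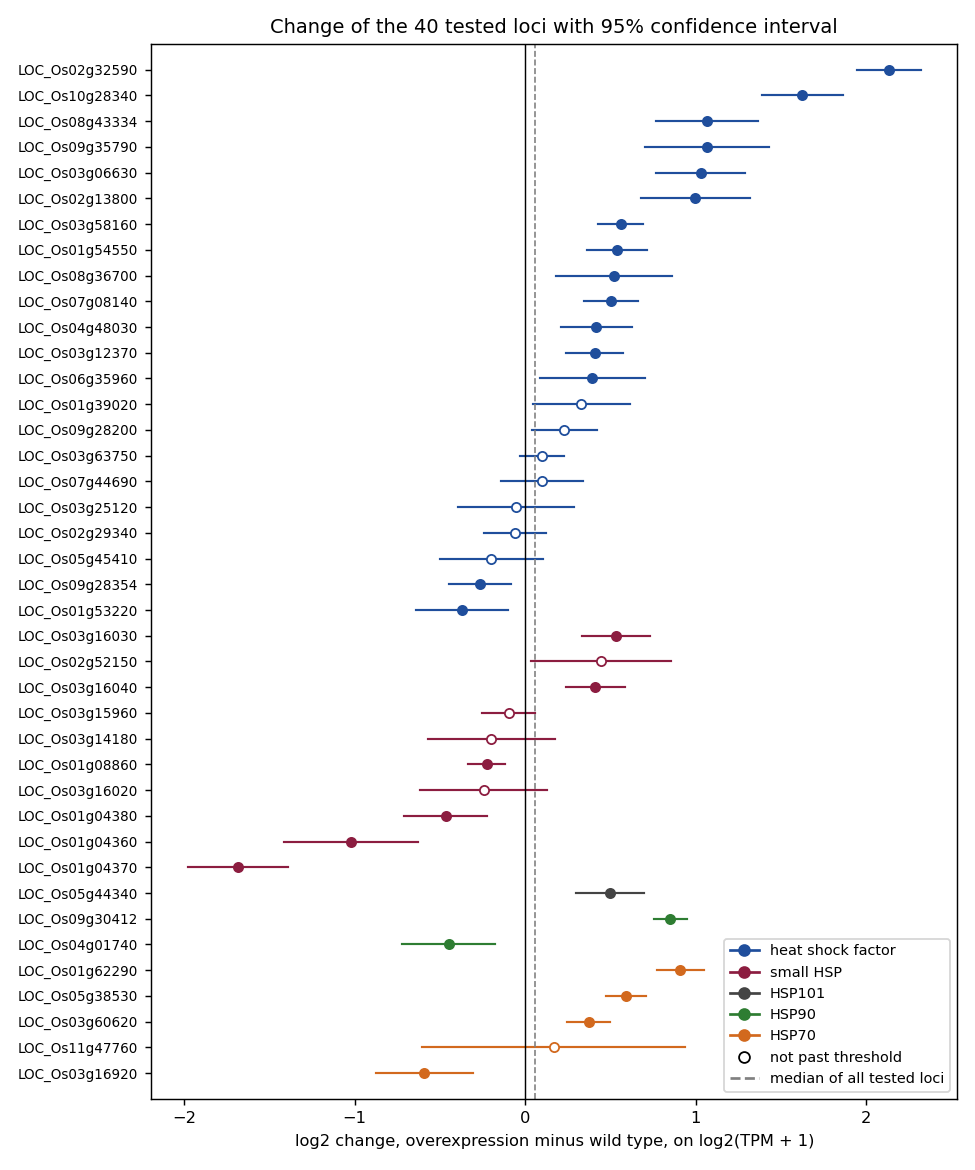
Log2 change of the 40 tested loci (points) with 95% confidence intervals from limma (lines), by class; filled points passed the threshold and the dashed line is the median of all tested loci, 0.06. The HSF loci reach 2.13 and lie mostly to the right of 0, the small HSP loci spread from -1.68 to 0.53, and LOC_Os11g47760 has the widest interval.

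Across the classes, 20 of the 40 tested loci rose, 8 fell and 12 stayed short of the threshold, beside 25.3% higher and 17.5% lower among all tested loci, and without LOC_Os02g13800 19 of 39 rose. Of those that passed, 21 of the 28 changed less than 2-fold on the log2(TPM + 1) scale. On the log2(TPM + 1) scale 7 loci changed at least 2-fold, 5 HSFs that rose and 2 of the chromosome 1 small HSP neighbours that fell, beside 3.25% higher and 1.57% lower at least 2-fold among all tested loci. The count of HSFs at least 2-fold higher depended on single libraries: it was 3 without wild-type replicate 2 and 3 without wild-type replicate 3, where LOC_Os09g35790 had log2 changes of 0.96 and 0.99, LOC_Os03g06630 had 0.97 without replicate 2 and LOC_Os08g43334 had 0.97 without replicate 3. It was 4 to 6 when any other library was left out. The count of small HSPs at least 2-fold lower was 1 without wild-type replicate 1 and 1 without overexpression replicate 1, when the log2 change of LOC_Os01g04360 was -0.99 and -0.81. No HSP101, HSP90 or HSP70 locus reached 2-fold on this scale, the nearest being LOC_Os01g62290 with a log2 change of 0.91. Within a genotype the highest library exceeded the lowest by a median factor of 1.16 in wild type and 1.17 with overexpression; LOC_Os11g47760 had the largest such factor in both, 2.24 and 2.05.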

How the data were processed

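Transcript abundance was measured by RNA sequencing in 6 panicle libraries, 3 wild type and 3 overexpression, grouped by their titles. The deposited table gives TPM, scaled by the authors to a sum of 1000000 in every library, for 42189 loci. The aligner, quantifier, annotation and treatment of shared reads could not be learned from the sources used here. Builds listed in the submitters' processing notes are GRCm38 and mm10, which are mouse builds, while the identifiers are of the rice LOC_Os form. TPM keeps no read depth, so no counting interval or detection limit is given.

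The 23395 loci reaching 1 TPM in 3 or more libraries were compared as log2(TPM + 1) with limma 3.58.1 in R 4.3.3 (variance trend, two-sided), with Benjamini-Hochberg adjustment over all of them. The fit was tried on data simulated from its own variance estimates with few loci changed, which cannot test the assumptions of the model. Every member is accounted for. Values of every library are given for the 2 most abundant members of each class by mean over the 6 libraries. They are also given for HSP101, both HSP90 loci and members past the threshold and at least 2-fold changed. Any others were chosen after their values were seen. The members and lists were chosen with earlier results of these data known. Sums over a class are described without a test. Alternatives were no filter, a 5 TPM filter, a pseudocount of 0.1, median-of-ratios scaling, quantile normalization, other variance models, a replicate block and leaving out each library; for the sums, leaving out the most abundant member.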

Additional observations from a re-analysis of the deposited data

How the results depend on the processing

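Of 20 members that rose, 18 kept their call under every alternative in which they were tested, as did 5 of 8 that fell. A pseudocount of 0.1 changed no member's call, and made 6 rather than 5 HSFs at least 2-fold higher; either scaling made them 4, and a filter at 5 TPM made them 3, with 1 rather than 2 small HSPs at least 2-fold lower. HSF loci that rose numbered 11 to 14, and 8 with a filter at 5 TPM, which tests 27 of the 40 members and leaves 0 lower HSP90 and 0 lower HSP70 loci. HSF loci that fell numbered 2, but 1 with no filter, 1 with the replicate block, and 0 to 2 when a library was left out; the lower HSP90 count was 0 to 1. Leaving out a library gave HSP70 sum ratios of 0.912 to 1.55. Median-of-ratios scaling gave sum ratios of 1.41 (HSF) and 1.71 (HSP90). Without the most abundant member the ratios were 1.55 (HSF), 1.03 (small HSP) and 0.647 (HSP90). Some log2 changes of loci not past the threshold changed sign: LOC_Os03g63750 (-0.0088, quantile normalization), and, as ranges over the left-out libraries, LOC_Os07g44690 (-0.00010 to 0.19), LOC_Os03g25120 (-0.19 to 0.076) and LOC_Os11g47760 (-0.16 to 0.55, with -0.016 and -0.032 between). The cause was not tested.

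The replicate numbers are shared, but the labels do not say that they pair libraries. Deviations of same-numbered libraries correlated at 0.097, -0.0988 and -0.0685. Differently numbered libraries were not compared in this way, so whether the numbers mark a pairing was not tested. The replicate block gave 9264 loci past the threshold instead of 10002; among the members LOC_Os09g28354 and LOC_Os06g35960 no longer passed and LOC_Os02g52150 did. Of all calls 59.1% were higher as deposited, 45.7% after quantile normalization and 49.7% with median-of-ratios scaling. Unknown depth limits what can be said of the loci under 1 TPM.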

Other observations

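The split of libraries seen at LOC_Os11g47760 was rare elsewhere in the table. Among 9922 loci whose mean reached 20 TPM, 3 had both wild-type replicate 1 and overexpression replicate 3 at least 1.5 times above the other libraries of their genotype: LOC_Os11g47760, LOC_Os03g10930 and LOC_Os05g10740. The other combinations of a wild-type and an overexpression library gave 0 to 5 loci. LOC_Os11g47760 had a mean of 1149 TPM, against 21.7 and 25.1 TPM for the others. This description was chosen after the values were seen.

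Around the chromosome 1 small HSP neighbours, 13 tested loci outside the set had identifier numbers within 100. Of these 7 fell, 3 rose and the other 3 stayed short of the threshold, beside 17.5% lower and 25.3% higher among all tested loci. Their median log2 change was -0.45, but the changes ran from -1.28 to 3.71. At least 2-fold, 2 were higher and 1 was lower, beside 3.25% higher and 1.57% lower among all tested loci. Around the chromosome 3 neighbours the same distance held 21 such loci, of which 3 fell, 3 rose and 15 did not pass, with a median log2 change of 0.04. This distance was fixed for neighbouring members, and its use for loci outside the set was chosen after the values of the members were seen.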
